A study of Mus musculus with 42 samples.

Results

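The 10 genes described here make, assemble, bind or degrade the lubricating matrix of the joint: Prg4, which encodes lubricin, the hyaluronan synthases Has1, Has2 and Has3, the precursor enzyme Ugdh, the degrading proteins Cemip, Hyal1 and Hyal2, the receptor Cd44 and the hyaluronan-modifying protein Tnfaip6. They were chosen by name, with earlier results of these data known, as the rows of both gene count tables whose identifier maps to these symbols. All 10 were listed in both tables, among 36604 genes in joint soft tissue and 54752 in lymph nodes. All 10 passed the filter on low counts among 16149 tested joint genes, and 9 passed among 18312 tested node genes, where Has1 was too low.

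All mice were wild type on the C57BL/6 strain, and the study followed immune and repair responses after knee arthroplasty, the replacement of knee joint surfaces with an implant. Neither age nor sex is given in the sources. Joint soft tissue was labelled RST on days 3, 7, 14, 21 and 35 and LST on day 35, with 4 libraries a group. The labels do not spell out these codes, so they are kept as names, and an RST library of an earlier day differs from LST day 35 in both label and day. Lymph nodes were labelled Implant, ContraImplant or NoImplant on days 7 and 14, with 3 libraries a group. The node labels also read Surgery for Implant nodes and NoSurgery for both other groups. Effects of the implant and of surgery therefore cannot be told apart. By the animal numbers in their labels, the ContraImplant nodes came from the other side of the Implant animals, and the NoImplant nodes from other mice.

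Lubricin is a mucin-like glycoprotein secreted by the lining fibroblasts of the synovium and by superficial cartilage cells, and it coats the sliding surfaces. Hyaluronan, the other main lubricant of synovial fluid, is a long unbranched sugar polymer that is extruded through the plasma membrane by the HAS enzymes as they build it. Its amount and chain length depend on the supply of sugar nucleotides, on which synthase is active, and on uptake and cleavage by receptors and hyaluronidases. In wounds the polymer forms a hydrated provisional matrix, and its fragments are sensed by immune cells.

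Library totals ran from 17842090 to 28024003 counts in joint soft tissue and from 22041900 to 44371001 in nodes. Levels are given in CPM, counts scaled to the library total, on the TMM scale, which corrects for unequal library composition. The libraries are of bulk tissue, so fewer cells of a type and less RNA per cell cannot be told apart. Skeletal muscle genes dominated the joint libraries: 5 muscle markers summed to 56781 ± 13937 CPM in RST day 7, 142392 ± 1505 in RST day 35 and 149896 ± 5478 in LST day 35 (SD, n = 4 each). One RST day 21 library, replicate 2, had 113829 CPM of these markers against 143527 to 148079 in the other 3 of its day, and results that rest on it are also given without it.

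Prg4 (chr1:150449412-150466165, minus strand, mm10 as all positions of genes below) was the most abundant of the 10 genes per length of transcript in every joint group, and every RST library held more of it than every LST library. In LST day 35 the 4 libraries held 77.0, 14.4, 47.8 and 74.1 CPM. In RST day 35 they held 424, 1436, 621 and 1865 CPM. The groups did not overlap, and Prg4 was 20.4-fold higher in RST on the same day (log2 fold change 4.35 ± 0.55 SE, adjusted p = 6.87e-05). This and every later adjusted p, unless stated, comes from edgeR's quasi-likelihood test, adjusted by Benjamini-Hochberg over all genes tested. The level in CPM per kb of exon was 254 ± 159 in RST day 35 and 12.5 ± 6.79 in LST day 35 (SD, n = 4 each).

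Prg4 was already raised on day 3, and its spread between libraries then grew. The RST day 3 libraries lay between 431 and 512 CPM, close together, and gave a log2 fold change of 3.14 ± 0.52 over LST day 35 (adjusted p = 1.58e-05). Those of day 7 lay between 845 and 1177 CPM, above all of day 3, yet the step of 1.05 ± 0.49 did not pass (adjusted p = 0.0863). On days 14, 21 and 35 the mean stayed at 988, 1092 and 1087 CPM while the SD was 369, 744 and 679 CPM. The day 21 mean rests in part on replicate 2, at 2035 CPM, while replicates 1, 3 and 4 held 661, 361 and 1313 CPM. The ranges of days 7 to 35 overlapped each other, and the test of any change over the RST days did not pass for Prg4 (adjusted p = 0.156; 0.0331 with no filter on low counts). Of its exon bases, 4.77% overlap the gene Tpr on the other strand, which had joint group means from 120 to 166 CPM.

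The 3 hyaluronan synthases did not follow one course. Has1 (chr17:17843323-17855205, minus strand), the synthase reported to need the most precursor sugar, was barely present in LST day 35, at 0.895, 0.319, 0.511 and 0.767 CPM. In RST day 35 it stood at 7.59, 15.3, 8.75 and 28.7 CPM. The lowest RST library was above the highest LST library, with a log2 fold change of 4.60 ± 0.71 (24.2-fold, adjusted p = 0.000487). Its highest group mean was on day 7, 22.0 ± 7.56 CPM (SD, n = 4), where the libraries held 11.5, 21.6, 27.4 and 27.6 CPM. Each RST day passed against LST day 35, with log2 fold changes from 3.88 on day 3 to 5.15 on day 7, and Has1 did not pass the test of any change over the RST days (adjusted p = 0.204). Its rise of 1.27 ± 0.51 from day 3 to day 7 passed narrowly (adjusted p = 0.0493), and did not pass with DESeq2 (adjusted p = 0.0687) or without any 1 of RST day 3 replicates 1, 3 and 4 and RST day 7 replicates 2, 3 and 4 (adjusted p 0.0616 to 0.131).

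Has2 (chr15:56665627-56694539, minus strand), the synthase of early development and of long hyaluronan chains, rose early and was back near the LST level by day 35. It was at 12.3, 13.0, 10.4 and 10.5 CPM on RST day 3 and at 16.7, 17.4, 21 and 30.2 CPM on day 7, against 0.937 to 1.07 CPM in LST day 35. On day 7 this was a log2 fold change of 4.42 ± 0.39 over LST day 35 (21.5-fold, adjusted p = 2.09e-09). The rise of 0.88 ± 0.31 from day 3 to day 7 passed (adjusted p = 0.0253), though not without RST day 3 replicate 3 or 4 or RST day 7 replicate 4 (adjusted p 0.0582 to 0.108). From day 7 to day 14 Has2 fell by 1.76 on the log2 scale (SE 0.32, adjusted p = 0.000293), and no day 14 library, at 3.29 to 11.6 CPM, reached the lowest of day 7. On RST day 35 the libraries held 1.28, 1.89, 1.77 and 0.924 CPM, a range that overlaps that of LST, and the difference of 0.56 ± 0.45 did not pass (adjusted p = 0.752).

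The day 21 value of Has2 rests on 1 library. Replicates 1, 3 and 4 held 1.81, 1.81 and 2.43 CPM and replicate 2 held 5.73 CPM. With it, the log2 fold change over LST day 35 was 1.61 ± 0.42 (adjusted p = 0.00574). Without it the value was 1.03 and did not pass (adjusted p = 0.0936). Over the RST days as a whole Has2 changed (adjusted p = 2.21e-08), and 4.3% of its exon bases overlap the antisense RNA Has2os, whose own mean stayed between 0.398 and 0.788 CPM in the joint groups.

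Has3 (chr8:106870242-106884566, plus strand) moved the other way on day 3 and was then close to LST. The RST day 3 libraries held 0.975, 1.04, 1.92 and 1.58 CPM and the LST day 35 libraries 4.19, 2.28, 2.47 and 1.74 CPM. These ranges overlap, and the fall of 0.95 on the log2 scale (SE 0.30) passed (adjusted p = 0.00765) but not without LST replicate 1 (adjusted p = 0.0593). From day 7 on, no RST day passed against LST day 35, with log2 fold changes from -0.39 to 0.07. Has3 changed over the RST days (adjusted p = 0.0305), a call lost without RST day 3 replicate 1 or 2 or RST day 35 replicate 1 or 2 (adjusted p 0.0562 to 0.106), and 5.52% of its exon bases overlap Chtf8 on the other strand.

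**Figure D1:**
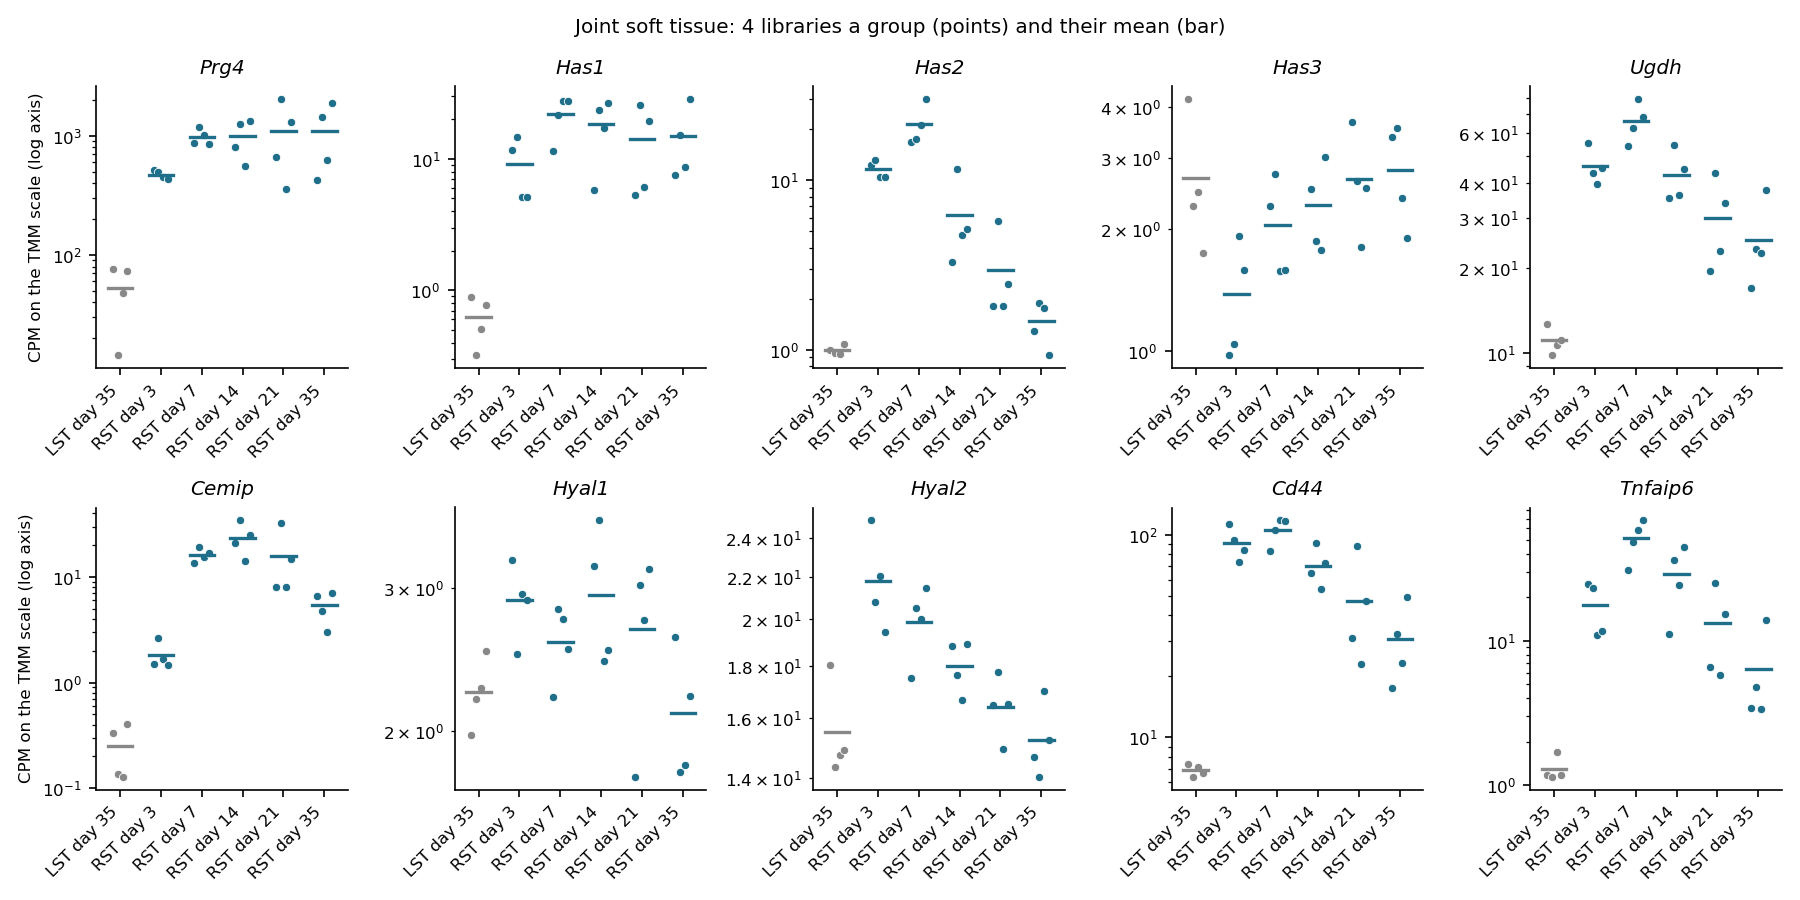
CPM on the TMM scale (log axis, a different range for each gene) of the 10 genes in the 24 joint soft tissue libraries; points are libraries, bars are means of 4, grey is LST day 35 and blue is RST. Prg4 and Has1 stay 20.4-fold and 24.2-fold above LST on day 35, while Has2 returns to overlap with it.

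Set against each other per length of exon, the synthase transcripts changed in make-up. In LST day 35, Has3 made up 52.0% ± 9.02 of the summed Has1, Has2 and Has3 level, Has2 30.8% ± 6.67 and Has1 17.3% ± 5.66 (SD, n = 4). On RST day 3, Has2 held the larger part, at 56.5% ± 8.23, with Has1 at 38.7% ± 10.8. On RST day 35, Has1 held 76.9% ± 11.2 and Has2 10.2% ± 5.12. The Has1 share of each RST day 35 library, 66.9, 77.1, 71.0 and 92.5%, lay above that of each LST library, 10.8 to 24.4%. These shares are a description with no test, and they depend on the exon lengths in the annotation and on the uncertain Has3 counts.

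**Figure D2:**
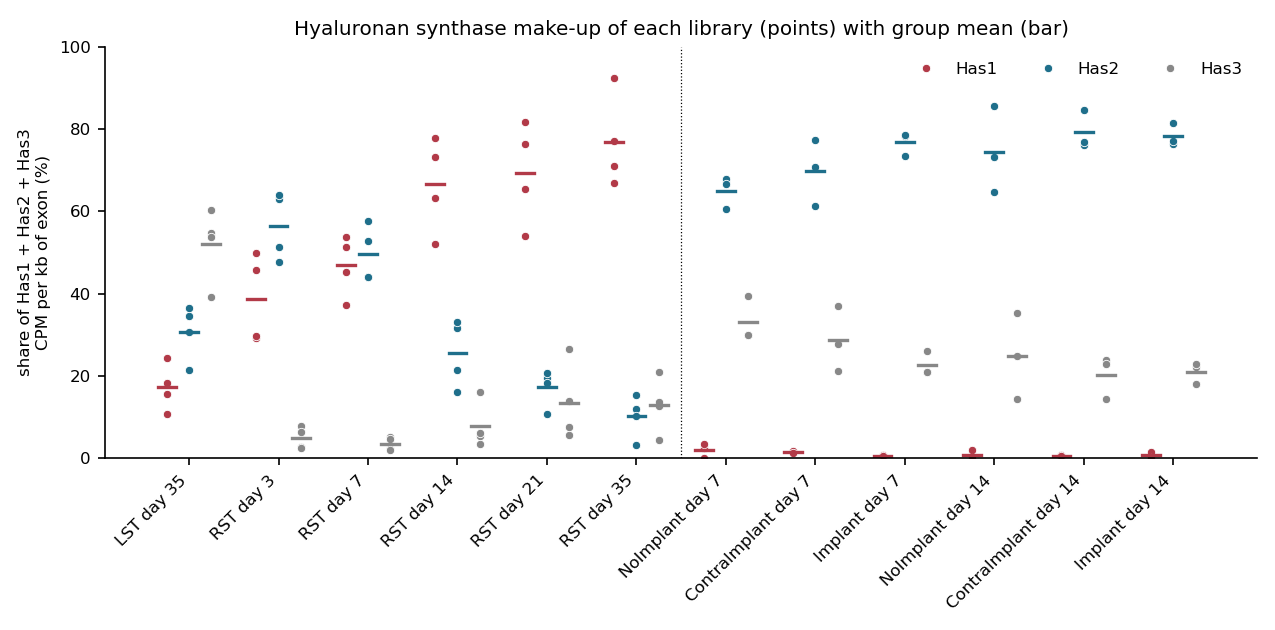
Share (%) of each synthase in the summed CPM per kb of exon of Has1, Has2 and Has3, by library (points) with group means (bars), for joint groups left of the dotted line and node groups right of it. The mean Has1 share goes from 38.7% on RST day 3 to 76.9% on RST day 35, and in node groups it is at most 1.93%.

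Ugdh (chr5:65413221-65435949, minus strand) encodes UDP-glucose dehydrogenase, which makes the activated glucuronic acid that the synthases add to the chain. It was at 12.7, 9.80, 10.7 and 11.2 CPM in LST day 35 and at 53.9, 62.9, 79.5 and 68.6 CPM in RST day 7, its highest group. The log2 fold change on day 7 was 2.58 ± 0.24 (adjusted p = 3.42e-09). It fell by 0.63 from day 7 to day 14 (SE 0.22, adjusted p = 0.0269), a call lost without RST day 7 replicate 3 or 4 or RST day 14 replicate 1 or 3 (adjusted p 0.0566 to 0.0937). On RST day 35 it was at 16.9, 23.4, 22.6 and 37.8 CPM, all above LST, with a log2 fold change of 1.18 ± 0.23 (adjusted p = 0.0053).

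Cemip (chr7:83932857-84086502, minus strand) had the largest log2 fold change of the 10 genes on days 7, 14 and 21. Its product binds hyaluronan and is needed for fibroblasts to break the polymer down. In LST day 35 it was at 0.33, 0.137, 0.128 and 0.409 CPM, from 3 to 8 counts a library, so its folds rest on few LST counts. On RST day 3 it reached 1.47 to 2.67 CPM, on day 7 it stood at 13.5, 19.4, 15.4 and 17.0 CPM, and on day 14 at 20.8, 34.4, 14.2 and 25.1 CPM. The step from day 3 to day 7 was 3.14 ± 0.40 on the log2 scale (adjusted p = 3.57e-06), with no overlap. Against LST day 35 the log2 fold change was 6.57 ± 0.55 on day 14 (adjusted p = 9.89e-09) and 4.43 ± 0.59 on day 35 (adjusted p = 0.000117), where the libraries held 6.64, 4.80, 3.01 and 7.08 CPM.

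Cemip was already above LST day 35 on day 3 (2.89 ± 0.65, adjusted p = 0.000477, with no overlap), and its highest mean came on day 14. From day 21 to day 35 Cemip fell by 1.58 (SE 0.37, adjusted p = 0.0241). The day 21 libraries held 7.98, 32.8, 8.06 and 14.8 CPM, and without replicate 2 the change was -0.94 and did not pass (adjusted p = 0.239). Leaving out RST day 35 replicate 1, 2 or 3 also lost the call (adjusted p 0.0611 to 0.0916).

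The hyaluronidase genes Hyal2 (chr9:107567945-107572779, plus strand) and Hyal1 (chr9:107576927-107581710, plus strand) moved little. Hyal2 encodes a surface enzyme that starts cleavage of long chains, and its group means ran from 15.2 to 21.8 CPM. It was at 25.0, 20.8, 22.0 and 19.4 CPM on RST day 3, above the 14.3 to 18.0 CPM of LST day 35, a log2 fold change of 0.49 ± 0.09 (adjusted p = 6.72e-05). On day 7 it was 0.36 ± 0.09 higher (adjusted p = 0.00134) with overlapping ranges, and on day 35 the difference was -0.02 ± 0.09 (adjusted p = 0.978). On day 14 it did not pass (0.22 ± 0.09, adjusted p = 0.051), but it did without LST replicate 1 (0.29, adjusted p = 0.0118) or RST day 14 replicate 3 (0.25, adjusted p = 0.0379). Hyal1, the lysosomal hyaluronidase, stayed between 1.75 and 3.64 CPM in all 24 joint libraries and passed in no comparison with LST day 35 that used all libraries. It passed on day 3 without RST day 3 replicate 2 (0.44, adjusted p = 0.0477). On day 14 it passed without RST day 14 replicate 3 (0.49, adjusted p = 0.0309) or 4 (0.47, adjusted p = 0.0398). Its counts are uncertain, because 50.8% of its exon bases are shared with Naa80 on the same strand and Naa80 had joint group means from 11 to 14.5 CPM.

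Cd44 (chr2:102811141-102901665, minus strand), the main cell-surface receptor for hyaluronan, was carried at 6.38 to 7.40 CPM in LST day 35. It was at 113, 94.6, 73.1 and 84.4 CPM on RST day 3 and at 83.4, 105, 118 and 116 CPM on day 7, far above every LST library. The log2 fold change was 3.72 ± 0.35 on day 3 (adjusted p = 5.5e-09) and 3.93 ± 0.35 on day 7 (adjusted p = 2.25e-09). On day 35 the libraries held 17.5, 32.2, 23.2 and 49.4 CPM, none as low as LST, with a log2 fold change of 2.14 ± 0.34 (adjusted p = 0.000634). No single step between neighbouring days passed for Cd44, while the test over all RST days did (adjusted p = 0.000123). Cd44 is also carried by leukocytes, and 5 macrophage markers summed to 450 ± 34.9 CPM on RST day 3, 72.9 ± 18.0 on RST day 35 and 48 ± 7.56 in LST day 35 (SD, n = 4). Their part in the Cd44 values was not tested.

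Tnfaip6 (chr2:52038009-52056686, plus strand) encodes TSG-6, which is made in response to inflammatory signals and transfers protein chains onto hyaluronan. It was at 1.18, 1.14, 1.70 and 1.18 CPM in LST day 35 and at 31.1, 48.5, 58.7 and 68.2 CPM on RST day 7, its highest group. That was a log2 fold change of 5.30 ± 0.60 (adjusted p = 5.11e-08), after a step of 1.55 ± 0.46 from day 3 (adjusted p = 0.00954). On day 35 the libraries held 3.42, 4.74, 3.35 and 13.9 CPM, each above LST. The day 35 difference of 2.27 ± 0.62 passed narrowly (adjusted p = 0.0464), and it did not pass in 6 of the 8 fits that left out 1 library, any LST replicate or RST replicate 2 or 4 (adjusted p 0.0643 to 0.344). Without RST replicate 4 the difference was 1.54.

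The sequences upstream of Has1, Tnfaip6 and Cemip are shown because these 3 genes were the ones with the largest RST day 7 changes and differ in the motifs found there. They come from RefSeq promoters on build GRCm38.p6, which held 7 of the 10 genes, and are read 5′ to 3′ on the strand of the gene, from 250 bases before the RefSeq start up to the annotated GENCODE M21 gene. The Has1 stretch is chr17:17855206-17855438 (minus strand), that of Tnfaip6 chr2:52037863-52038008 (plus strand) and that of Cemip chr7:84086506-84086755 (minus strand). Capitals mark TGACGTCA, the cAMP response element (CRE), in Has1, the AP-1 pattern TGANTCA in Tnfaip6, and TATAAA, the TATA box, in Cemip.
Has1: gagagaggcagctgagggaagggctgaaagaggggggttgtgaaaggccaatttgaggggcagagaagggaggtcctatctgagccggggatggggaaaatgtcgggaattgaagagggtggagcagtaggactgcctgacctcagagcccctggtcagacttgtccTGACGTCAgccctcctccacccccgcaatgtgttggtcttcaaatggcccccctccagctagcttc
Tnfaip6: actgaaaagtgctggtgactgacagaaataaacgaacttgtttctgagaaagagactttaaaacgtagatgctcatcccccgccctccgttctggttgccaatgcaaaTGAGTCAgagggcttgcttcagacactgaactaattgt
Cemip: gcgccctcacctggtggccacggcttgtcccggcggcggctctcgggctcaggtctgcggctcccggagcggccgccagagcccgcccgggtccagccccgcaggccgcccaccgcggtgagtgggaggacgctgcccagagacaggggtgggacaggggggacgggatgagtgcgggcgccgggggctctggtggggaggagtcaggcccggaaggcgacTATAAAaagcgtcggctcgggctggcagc

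The 250 bases before each start were searched on both strands for these 3 patterns and for GGAATG (TEAD), GGGCGG (GC box) and CACGTG (E-box), none of which overlapped a capitalised match. Of these other patterns, Cemip held 2 GC boxes, and Tnfaip6 held 1 GC box and 1 GGAATG. The Has1 element began 83 bases before the start, and 1.55% of 32851 RefSeq promoters hold TGACGTCA in the same window. The Tnfaip6 AP-1 match began 142 bases before the start, and 6.75% of promoters hold one. The Cemip TATAAA began 29 bases before the start, and 12.4% of promoters hold one. None of these 3 patterns was in the windows of Hyal1, Hyal2, Cd44 or Ugdh. A match is a description of letters and not a measured site.

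Taken over the 10 genes, the number past the test stayed high as the number over all genes shrank. On RST day 3, 8 genes were higher and 1 lower than in LST day 35, where 68.7% of all genes tested passed (38.6% higher and 30.1% lower). On day 7, 8 were higher, where 76.1% passed (41% higher). On day 14 it was 7 genes, all higher, against 57.9% of all genes (33.4% higher), and on day 21 again 7 higher against 27.1% (21.7% higher). Without RST day 21 replicate 2 it was 6 on day 21, against 15.2% of all genes. On day 35, Prg4, Has1, Cemip, Cd44, Ugdh and Tnfaip6 were higher, 6 of 10, where 2.97% of all genes passed and 2.92% were higher. The Tnfaip6 call among them was lost in 6 of the 8 fits that left out 1 library. In 1 of those fits, without RST day 35 replicate 4, 1.11% of all genes passed. On days 3, 7 and 14 more than 50% of all genes tested passed in some direction, so those counts say little about the 10 genes. The 10 genes were listed with earlier results of these data known, and several were high in the same libraries. The counts of days 21 and 35 are therefore a description and not a test of the set. The median log2 fold change of the 10 genes was 3.01, 4.06, 3.01, 2.19 and 1.66 on days 3, 7, 14, 21 and 35, and that of all genes tested 0.09, 0.08, 0.03, 0.02 and 0.02. These comparisons share the same 4 LST libraries.

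Between neighbouring days the genes passed in fewer numbers. From day 3 to day 7, Has1, Has2, Cemip and Tnfaip6 rose, 4 of 10, where 41.2% of all genes passed (18.7% higher). From day 7 to day 14, Has2 and Ugdh fell, where 38.9% passed (18% lower), and from day 21 to day 35 Cemip alone fell, where 3.97% passed (3.89% lower). That share rests on single libraries: the 641 genes called became 35 without RST day 21 replicate 2, and 67, 52 and 41 without RST day 35 replicates 1, 2 and 3. From day 14 to day 21 edgeR called 0 of the 10 genes (3 had an unadjusted p under 0.05, and DESeq2 called 1), where 0.737% of all genes passed with edgeR and 8.37% with DESeq2. Without RST day 21 replicate 2 this step called 5 of them, where 27.2% of all genes passed. Of the 10 genes, 7 changed over the RST days as a whole, where 79.6% of all genes did, and Prg4, Has1 and Hyal1 did not pass. Without RST day 21 replicate 1 Hyal1 passed (adjusted p = 0.0385), and with no filter on low counts Prg4 did. The Has3 call, 1 of the 7, was lost without any 1 of 4 libraries.

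**Figure D3:**
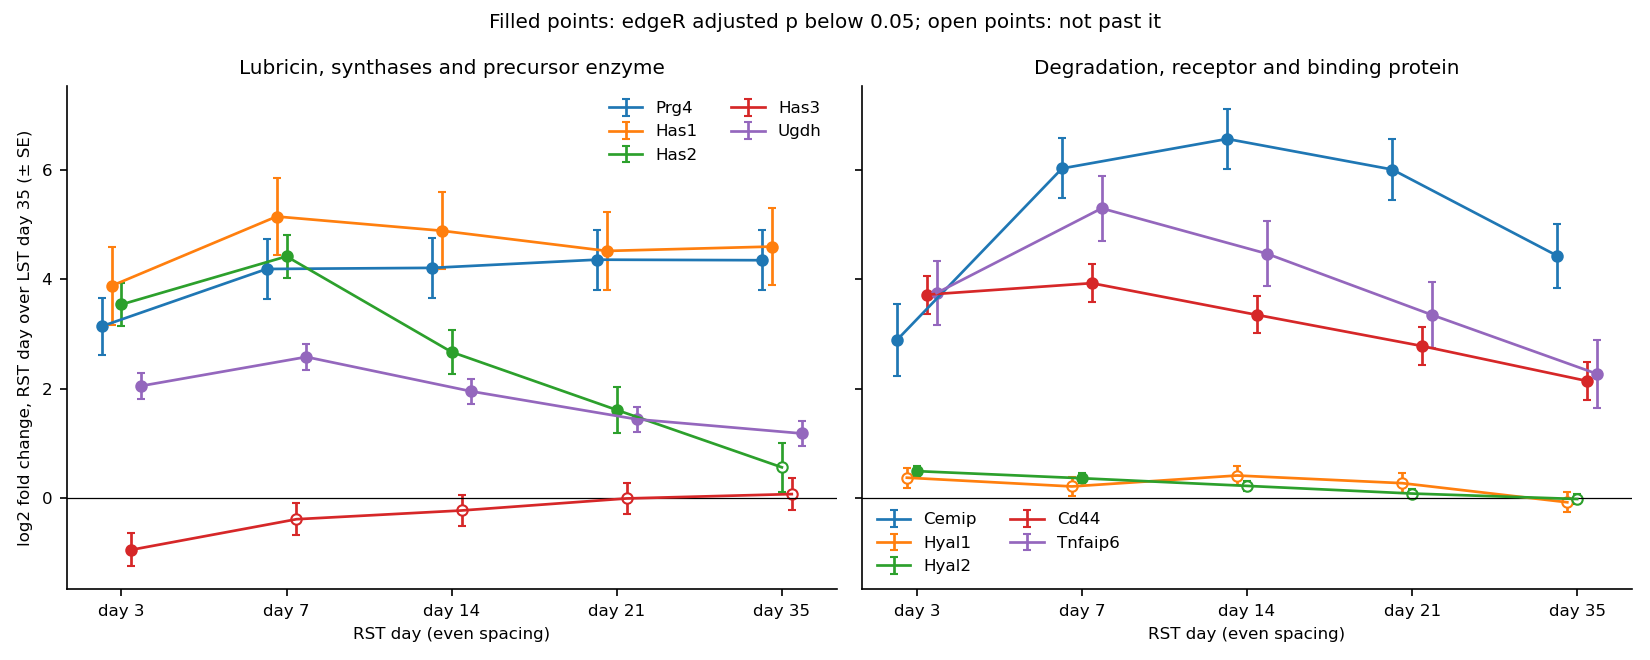
Log2 fold change (± SE) of each gene on each RST day over LST day 35, n = 4 libraries a group, with days evenly spaced; filled points passed at an adjusted p below 0.05 in edgeR. Prg4 and Has1 are still raised on day 35 (4.35 and 4.60), Has2 falls from 4.42 on day 7 to 0.56, and Cemip is highest on day 14 (6.57).

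Within a day, several of these genes were high in the same libraries. The deviations of log2 CPM from the day mean were compared over the 20 RST libraries, which share depth, composition and dissection between genes, so the coefficients are a description. Has1 and Tnfaip6 gave a Pearson r of 0.97, Prg4 and Cd44 0.92, and Cd44 and Ugdh 0.92. Has3 stood apart, with coefficients from -0.45 to 0.06 with the other 9 genes. Hyal1 and Hyal2 were loosely related, at 0.19 and 0.28 with Prg4 and 0.24 and 0.28 with Has1. Has2 was less so, at 0.41 with Prg4 and 0.54 with Has1, but below the pairs named first. On RST day 35, replicate 4 was the highest of the day for Prg4, Has1, Cemip, Cd44, Ugdh and Tnfaip6 (1865, 28.7, 7.08, 49.4, 37.8 and 13.9 CPM) and the lowest for Has2 and Has3 (0.924 and 1.90 CPM). On RST day 21, replicate 2 was the highest of the day for these 6 genes and for Has2. The coefficients were not computed without these libraries.

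**Figure D4:**
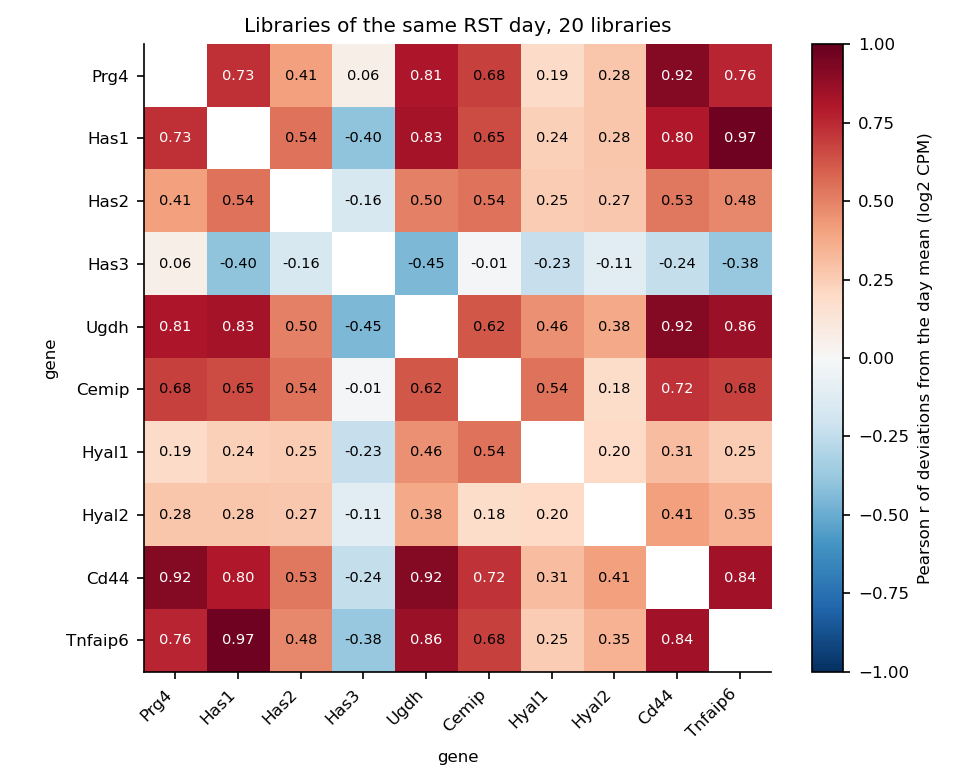
Pearson r between the genes' deviations of log2 CPM from their day mean, over 20 RST libraries, with red for positive and blue for negative values. Has1 with Tnfaip6 (0.97), Prg4 with Cd44 (0.92) and Cd44 with Ugdh (0.92) are the darkest cells, and the row of Has3 is pale or blue.

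The same deviations were set beside cell type markers. For Prg4 the coefficient with the mean of 8 synovial lining fibroblast markers was 0.88 and for Cd44 0.93, and with 6 sublining fibroblast markers 0.73 and 0.83. With macrophage markers they were 0.73 and 0.81, and with lymphatic endothelial markers 0.69 and 0.64. With lymph node stroma markers they were 0.66 and 0.77, with tendon markers 0.58 and 0.71, with chondrocyte markers 0.60 and 0.53, and with neutrophil markers 0.52 and 0.67. With skeletal muscle markers they were -0.23 and -0.50. Has1 gave 0.65 with the lining markers, 0.58 with the sublining markers and 0.66 with the tendon markers. Against LST day 35 the lining markers did not move as one. On RST day 3, Tppp3 (-1.49 ± 0.14) and Clic5 (-1.40 ± 0.17) passed as lower, while Pdpn, Cdh11 and Vcam1 passed as higher. On RST day 7, Clic5 (-1.70 ± 0.17), Tppp3 (-0.86 ± 0.13) and Tspan15 (-0.39 ± 0.17) passed as lower. Cdh11, Pdpn, Vcam1, Htra1 and Creb5 passed as higher on that day. On RST day 35, 2 of the 8 lining markers were higher than in LST day 35, Htra1 (1.81 ± 0.26, adjusted p = 0.000259) and Cdh11 (1.55 ± 0.39, adjusted p = 0.0292), while Clic5 was at -0.14 ± 0.17 and Tspan15 at 0.52 ± 0.17, neither past the test (adjusted p = 0.884 and 0.106). The summed level of the 8 markers was 464 to 628 CPM in RST day 35 and 408 to 469 in LST day 35, and that of the sublining markers 1261 to 1958 and 433 to 516, with no marker of these lists at 0. The 5 chondrocyte markers summed to 77.0 ± 9.96 CPM and 18.5 ± 4.55. Their part in the Prg4 and Has1 differences was not tested.

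The genes most like Prg4 by Pearson r of log2 CPM over the 24 joint libraries, again a description, were Fn1 (0.964), which encodes fibronectin, Has1 (0.947) and Anxa8 (0.938). For Has1 they were Prg4 (0.947), Medag (0.942) and Ccn2 (0.940), a secreted matrix-associated factor. For Cemip they were the collagenase gene Mmp13 (0.981), Edil3 (0.979) and Antxr1 (0.972). Mmp13 went from 5.22 CPM on RST day 3 to 136 on day 14 and 25.7 on day 35, against 1.42 in LST day 35, and Fn1 from 703 on day 3 to 2533 on day 14 and 1957 on day 35, against 163.

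Other genes of hyaluronan metabolism were taken from 5 textbook lists. Their joint counts are against LST day 35. Over all genes tested, 38.6, 41, 33.4, 21.7 and 2.92% were higher on RST days 3, 7, 14, 21 and 35. In either direction 68.7, 76.1 and 57.9% passed on days 3, 7 and 14, so the counts of those days say little about the lists. Of 10 tested hyaluronan-binding matrix genes, 5 were higher and 1 lower on RST day 3, 7 were higher on day 7, 8 on day 14 and 5 on day 21, and on day 35 only Acan, the cartilage proteoglycan aggrecan (3.57 ± 0.58, adjusted p = 0.000823), and Hapln1, the link protein that locks it to hyaluronan (2.83 ± 0.71, adjusted p = 0.0289). Acan went from 0.307 to 0.724 CPM in LST day 35 to 130 to 194 CPM in RST day 7 and 4.06 to 6.60 CPM in RST day 35, and the groups did not overlap. The 10 genes had a median log2 fold change of 2.85 on day 7 and 0.70 on day 35. Vcan, the versican gene, was at 4.13 ± 0.36 on day 7 and had 0.91 ± 0.34 on day 35, which did not pass (adjusted p = 0.199).

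Of 7 receptor and clearance genes, 6 were higher and 1 lower on RST day 3, 5 higher and 1 lower on each of days 7, 14 and 21, and 1 higher on day 35. The shares of all genes tested that were higher were 38.6, 41, 33.4, 21.7 and 2.92% on these days. The gene that was lower was Stab2, a scavenger receptor of sinusoidal endothelium, at -1.72 ± 0.20 on day 3, and the one still higher on day 35 was Tlr2, a receptor of the innate immune system (1.66 ± 0.41, adjusted p = 0.0272). Of 4 tested genes of other degrading enzymes, 4 were higher on days 3, 7 and 14 and 3 on day 21. On day 35 edgeR called 0 of them, and 2 had an unadjusted p under 0.05. The list had a median log2 fold change of 2.0 on day 3 and 0.41 on day 35.

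Of 6 precursor supply genes, 4 were higher and 1 lower on RST day 7, where 76.1% of all genes passed (41% higher). Gfpt2, an entry enzyme of the hexosamine pathway, was the 1 higher on day 35 (0.91 ± 0.24, adjusted p = 0.038). Ugp2, which makes the UDP-glucose that Ugdh uses, was at -1.83 ± 0.15 on day 7, while Ugdh was at 2.58 ± 0.24. Of 9 tested cytokine and growth factor genes known to raise hyaluronan synthesis, 3 were higher and 3 lower on day 3. On day 7, 4 were higher and 2 lower. Over all genes tested, 38.6% were higher and 30.1% lower on day 3, and 41% were higher on day 7. The cytokine and growth factor counts of those days are therefore near the background. The 2 higher on day 35, where 2.92% of all genes were, were Hbegf (1.08 ± 0.22, adjusted p = 0.00627) and Tgfb1 (1.14 ± 0.27, adjusted p = 0.0188). Il1b was at 6.31 ± 0.92 on day 7 and at 2.83 ± 1.11 on day 35, which did not pass (adjusted p = 0.236).

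In lymph nodes the pattern was another one, and hardly any of the genes differed between groups. Hyaluronan reaches nodes in lymph and is taken up and degraded there, in part by sinus endothelium. Per kb of exon, Cd44 and Hyal2 were the highest of the 10 genes in every node group, at 20.7 to 24.1 and 13.4 to 23.9 CPM per kb as group means. Prg4 was at 4.0 to 7.07 CPM as group means, with single libraries from 2.71 to 15.1, and Tnfaip6 at 0.426 to 0.664. Tpr, which overlaps Prg4 on the other strand, had node group means from 278 to 330 CPM, and Chtf8, which overlaps Has3, from 127 to 144. No strand setting is given, so the low Prg4 and Has3 values are uncertain. Has2 was the main synthase transcript, with 65.0% to 79.3% of the synthase level per length, and Has1 had 0 to 3 counts a library.

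Hyal2 was lower in Implant than in NoImplant nodes on day 14. The Implant libraries held 54.7, 63.4 and 52.3 CPM, the ContraImplant libraries 78.4, 90.4 and 65.1, and the NoImplant libraries 70.4, 73.7 and 92.1. Implant lay below both other groups without overlap, and against NoImplant Hyal2 fell by 0.47 on the log2 scale (SE 0.13, adjusted p = 0.0497). It was the 1 of 9 tested genes that passed in this comparison, where 5.97% of all genes did (2.53% lower), so the count is near the background. The call was lost with DESeq2 size factors (adjusted p = 0.0501), with no filter on low counts (adjusted p = 0.0538) and in 5 of the 6 fits that left out 1 library, all but that without NoImplant replicate 1 (adjusted p 0.0831 to 0.195). Against ContraImplant on day 14 the difference of -0.46 ± 0.13 did not pass (adjusted p = 0.587).

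On day 7 Hyal2 was at 43.2, 41.4 and 47.3 CPM in Implant nodes, 53.6, 70.1 and 55.8 in ContraImplant and 52.6, 55.3 and 61.1 in NoImplant. Implant was again below both without overlap, with -0.44 ± 0.13 against ContraImplant (adjusted p = 0.104; 0.0375 with DESeq2) and -0.36 ± 0.13 against NoImplant (adjusted p = 0.18). The 4 endothelial markers summed to 654 ± 31.8 CPM in Implant and 874 ± 99.5 in NoImplant nodes of day 14, and the 4 lymphatic endothelial markers to 569.5 ± 44.8 and 844 ± 43.9 (SD, n = 3), with none at 0. The 4 adipocyte markers summed to 25.9 to 116 CPM and 140 to 997. The 5 macrophage markers summed to 345 to 514 CPM and 409 to 695, ranges that overlap. Their part in the Hyal2 difference was not tested.

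Has2 and Cemip were higher in Implant than in NoImplant nodes by their means, without passing the test. On day 7 Has2 was at 6.11, 4.71 and 5.52 CPM in Implant nodes and at 2.68, 2.99 and 2.37 in NoImplant nodes, which do not overlap, with 5.41, 2.89 and 3.33 in ContraImplant nodes. The log2 difference between Implant and NoImplant was 1.02 ± 0.27 (adjusted p = 0.0955 with edgeR, 0.0164 with DESeq2). On day 14 it was 0.68 ± 0.26 (adjusted p = 0.111), again without overlap. The ContraImplant nodes of day 14 held 3.57, 7.25 and 6.07 CPM of Has2, a range that overlaps that of Implant. Cemip was at 7.16, 6.76 and 7.88 CPM in Implant nodes of day 14 and at 5.22, 3.89 and 4.4 in NoImplant nodes, with 0.69 ± 0.31 (adjusted p = 0.162). In ContraImplant nodes of day 14 Cemip was at 6.74, 5.32 and 5.19 CPM.

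**Figure D5:**
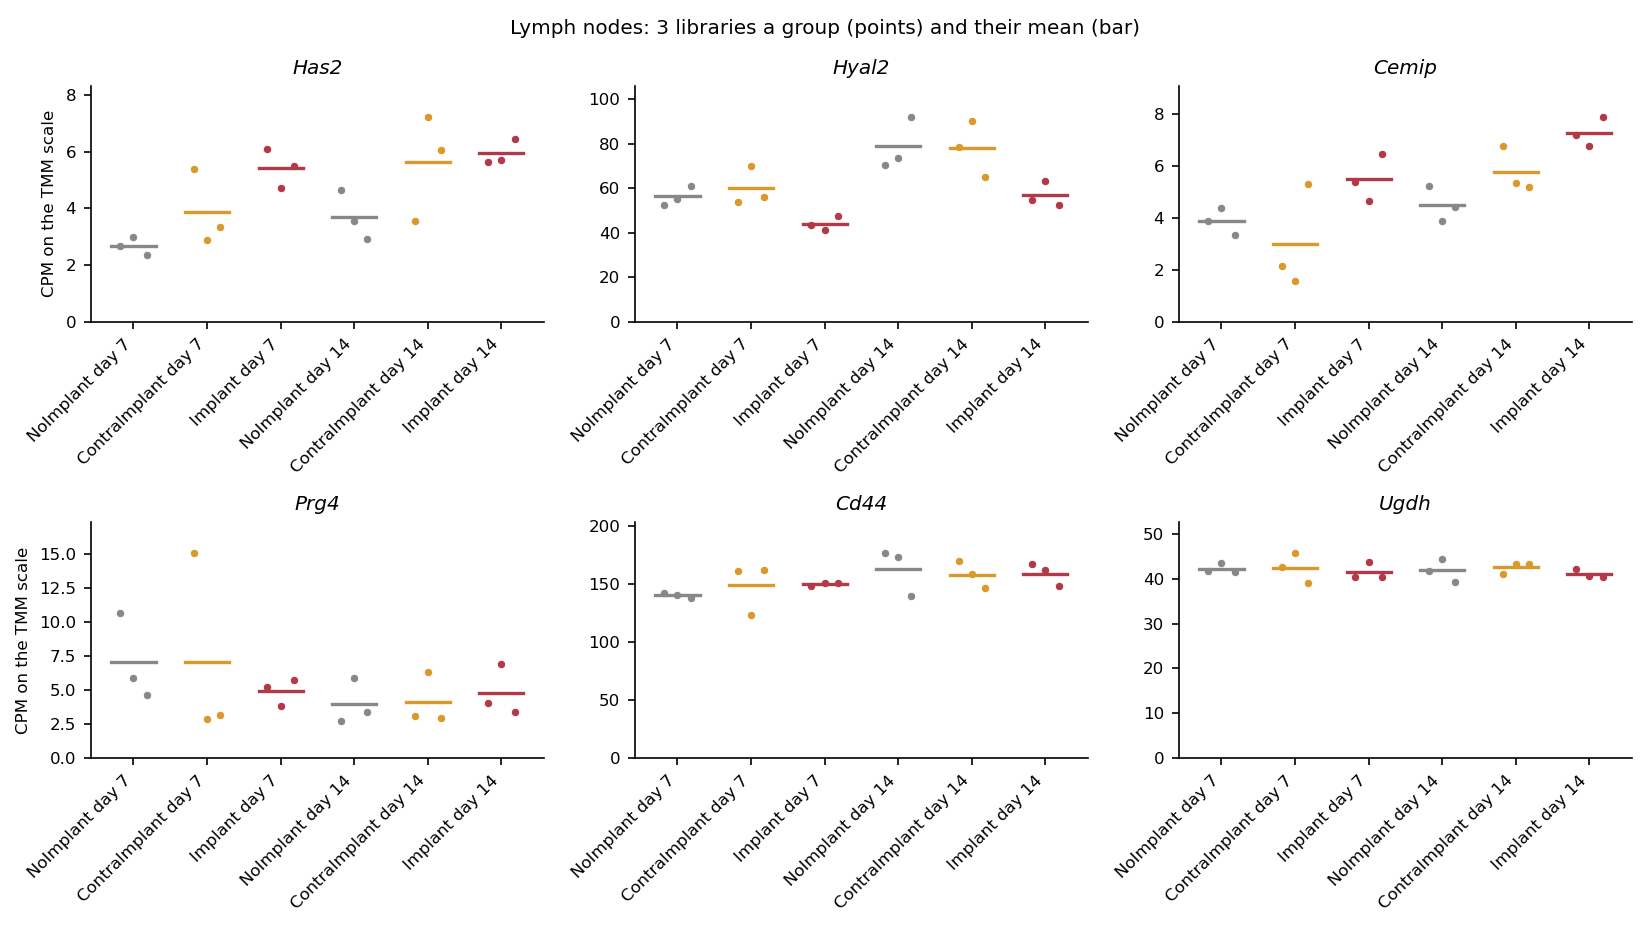
CPM on the TMM scale of 6 of the genes in 18 lymph node libraries; points are libraries and bars are means of 3, with grey for NoImplant, orange for ContraImplant and red for Implant. Hyal2 is lower in Implant than in both other groups on each day, Has2 is higher in Implant than in NoImplant, and Ugdh stays between 39.2 and 45.7 CPM.

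The other node comparisons called none of the 9 tested genes with edgeR. For Implant against NoImplant on day 7, 2 had an unadjusted p under 0.05 and DESeq2 called 1, Has2, where 0.0437% of all genes passed with edgeR and 4.43% with DESeq2. For Implant against ContraImplant on day 7 it was 2 and, with DESeq2, 1, Hyal2, where 0.715% passed with edgeR and 6.46% with DESeq2, and on day 14 it was 1 and 0, where 0% of all genes passed. For ContraImplant against NoImplant it was 0 and 0 on day 7 and 1 and 0 on day 14, each with 0% of all genes. From day 7 to day 14 it was 1 and 0 in Implant nodes (0% of all genes) and 2 and, with DESeq2, 1 in NoImplant nodes (0.0164% with edgeR and 4.44% with DESeq2). Whether an Implant effect differed between days was tested as an interaction, which gave 0 and 0 against either other group, with 0% of all genes.

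Of the 36 genes of the wider lists that were tested in nodes, 3, named after their values were seen, passed in Implant against NoImplant nodes on day 14, where 5.97% of all genes did, all lower: Stab2 (-1.15 ± 0.24, adjusted p = 0.0255), Lyve1, the hyaluronan receptor of lymphatic vessels (-0.87 ± 0.19, adjusted p = 0.026), and Hexa (-0.51 ± 0.11, adjusted p = 0.0251). All 3 calls were lost without Implant replicate 2 or 3 or NoImplant replicate 2 or 3 (adjusted p 0.0568 to 0.107), and those of Stab2 and Lyve1 also without Implant replicate 1. Lyve1 was also lower in Implant than in ContraImplant nodes on day 7 (-1.0 ± 0.19, adjusted p = 0.0323). That call was lost with the animal as a replicate block (adjusted p = 0.0717) and without ContraImplant replicate 2 or any 1 Implant replicate (adjusted p 0.101 to 0.189). The endothelial, adipocyte and macrophage marker sums given beside Hyal2 had lower means or ranges in Implant nodes of day 14 too. On day 7 the macrophage markers summed to 300 ± 31.3 CPM in Implant and 523 ± 136 in ContraImplant nodes (SD, n = 3). The part of cell numbers in these differences was not tested.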

How the data were processed

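Both tables hold whole-number gene counts deposited by the authors without normalisation, 1 table for the 24 joint libraries and 1 for the 18 of the nodes. Per the labels' protocols, frozen tissue was extracted with RLT (nodes) or Trizol (joint), and the NEBNext Ultra II kit was used on 100 ng of RNA. The submitters' processing notes name fastp, STAR and mm10. No counting program or strand setting is given in the sources, so genes with overlapping exons are uncertain. Symbols and positions are those of GENCODE M21.

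Genes were filtered with filterByExpr (minimum count 10), scaled by TMM and tested in edgeR 4.0.16 (R 4.3.3) by quasi-likelihood, with 1 model for each tissue and a threshold of 0.05 on the adjusted p, taken over all genes of a comparison. No adjustment was made across the 20 comparisons. An SE is the size of the log2 fold change divided by the root of F. Log2 CPM used a prior count of 2, and CPM per kb the union exon length. DESeq2 1.42.0, its size factors in edgeR, no filter, a replicate block and leaving out each replicate were the alternatives. The test was checked on simulated data.

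The 10 genes and the gene lists were chosen with earlier results of these data known. List genes were named by the smallest adjusted p on day 35 or over the RST days, and genes most like Prg4, Has1 or Cemip by the highest r. No 2 replicates agreed within sampling noise (lowest chi-square per degree of freedom 8.27). The joint replicates are not stated to be separate animals, so their p-values measure the spread between samples that may be technical. Same-numbered Implant and ContraImplant nodes come from the same animal, and their deviations from the group means correlated (mean r 0.193 on day 7 and 0.315 on day 14).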

Additional observations from a re-analysis of the deposited data

Results flagged for a closer look

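In 5 of 60 gene and group combinations of 4 joint libraries, 1 library stood apart by Dixon's criterion for the gap between the outermost library and its neighbour, where chance gives about 1 in 20. Has2 was at 5.73 CPM in RST day 21 replicate 2, against 1.81 to 2.43 CPM in the others. Cemip was at 2.67 CPM in 1 library of RST day 3, against 1.47 to 1.67 CPM. Hyal2 was at 18.0 CPM in 1 library of LST day 35, against 14.3 to 14.9 CPM. Tnfaip6 was at 13.9 CPM in 1 library of RST day 35, against 3.35 to 4.74 CPM, and at 1.70 CPM in 1 library of LST day 35, against 1.14 to 1.18 CPM.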

How the results depend on the processing

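Of 1104 refits of 86 results for single genes, 1050 kept direction and side of the threshold, 37 lost a call, 12 gained one and 5 reversed. The 5 reversals were of uncalled differences. Leaving out 1 library, Has3 on RST day 14 against LST day 35 ranged from -0.39 to 0.07 (without LST replicate 1), and Has2 in Implant against ContraImplant on day 14 from -0.18 (without ContraImplant replicate 1) to 0.30. Hyal2 in ContraImplant against NoImplant ranged from -0.04 (without ContraImplant replicate 2) to 0.16 on day 7. On day 14 it ranged from -0.12 to 0.11 (without NoImplant replicate 3), with 0.10 without ContraImplant replicate 3. Leaving out 1 library, the number of the 10 genes called ranged from 2 to 5 for RST day 7 against day 3, 1 to 2 for day 14 against day 7, 0 to 5 for day 21 against day 14, 0 to 2 for day 35 against day 21, 0 to 1 for Implant against NoImplant on day 14 and 0 to 1 for Implant against ContraImplant on day 7. DESeq2 called 1 gene in RST day 21 against day 14, in Implant against NoImplant on day 7, in Implant against ContraImplant on day 7 and in NoImplant day 14 against day 7. With no filter, RST day 21 against day 14 gave 1 gene and Implant against NoImplant on day 14 gave 0, as did DESeq2 size factors for the latter. The causes were not tested.

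Counts over all genes were less stable. RST day 35 against LST day 35 called 479 genes with edgeR, 767 with DESeq2, 751 with no filter and 182 without RST day 35 replicate 4. RST day 21 against day 14 called 119, and 4466 without RST day 21 replicate 2. Implant against NoImplant on day 14 called 1094, 2401 with DESeq2 and 0 without Implant replicate 2 or NoImplant replicate 2. The replicate block changed no call count of the 10 genes: RST day 35 against LST day 35 kept 6. In joint tissue no label ties the numbers to animals, and they were not taken as pairs because a same-number r fell under 0.1 in each comparison. Between RST and LST of day 35 the mean was 0.126 (0.0829 to 0.192, against -0.0421 for other pairs), and between RST days 14 and 21 it was 0.343 (lowest 0.0924). A low r cannot show that samples are unpaired, as Implant and ContraImplant nodes of the same animal went down to 0.106 on day 7. Over all genes the block moved RST day 21 against day 14 from 119 to 372, and Implant against ContraImplant on day 7 from 131 to 19. Genes at a few counts a library, such as Cemip in LST and Has1 in nodes, are limited by depth.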
